A study of Populus tremula x Populus alba with 72 samples.

Results

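On day 13 of ozone exposure, 64 poplar genes of the 34699 listed were higher at 100 ppb than in control air in expanded leaves. In growing leaves of that day their mean difference from control was small. These 64 genes are described here. They were chosen by measured values. A gene needed a group mean of at least 100 normalised reads in any group, a day 13 difference between 100 ppb and control of at least 1 on the log2 scale in expanded leaves, a difference within 0.3 of 0 in growing leaves on that day, and a difference within 1 of 0 between growing control leaves of day 13 and day 2. The last condition compares those 2 days only, and in growing controls 9 of the 64 genes were lower on day 8 than on day 2 by more than 1. Since fewer than 200 genes met the conditions, all of them were taken. The set moved with the scaling and with single libraries. Under equal totals 41 genes met the rule, 35 of them among the 64. Without expanded 100 ppb replicate 4 of day 13 it was met by 49 genes, 42 of them among the 64, and over all libraries left out in turn by 49 to 93 genes, most without expanded 100 ppb replicate 1 of that day.

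The plants were 2.5-month-old hybrid poplars (Populus tremula x Populus alba) of the micropropagated clone INRAE 717-1B4, so all libraries share 1 genotype. Trees stood in charcoal-filtered air (the control), in that air with 80 ppb ozone, or in that air with 100 ppb ozone, given for 13 h of the daytime. RNA came from expanded leaves and from growing leaves on days 2, 8 and 13, which made 18 groups of 4 libraries. Nothing in the labels ties a replicate number to a tree, a chamber or a pool. The p-values therefore rest on the spread among libraries, which may be partly technical.

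Ozone enters a leaf through the stomata and breaks down in the apoplast, the cell wall space, into reactive oxygen species. Plant cells sense these and can start antioxidant defence, hormone signalling through ethylene, salicylic acid and jasmonic acid, and in the end cell death seen as leaf lesions. Leaves of different age differ in stomatal opening, wall structure and antioxidant capacity, and the title of the series asks how ozone-responsive genes are regulated during leaf development. The deposited table gives gene identifiers alone, so neither the function nor the sequence of the 64 genes is given here. For the same reason, markers of expanded and growing leaves were not checked, and gene copies or overlapping genes that might share reads were not assessed.

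The 72 libraries held a median of 39.4 M (mega-reads) counted on genes, from 23.2 M to 54.3 M, and no pair of libraries was identical. All 64 genes passed the expression filter that left 27780 genes to be tested. The differences in the rule drew on day 13 libraries of both leaf positions, in control air and at 100 ppb. They also drew on the growing controls of day 2. The level limit, a group mean of at least 100, could be met in any of the 18 groups, days 2 and 8 included. Potri.007G062122 and Potri.007G062302 met it only through day 2 groups and growing leaves at 100 ppb on day 8. The libraries of the differences are described below with no test, and tests are kept to libraries outside them.

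Genes raised in expanded leaves with so little difference in growing leaves were uncommon on day 13. Of 23307 genes with a sufficient group mean, 2328 had a difference of at least 1 in expanded leaves, and their median difference in growing leaves was 1.63. Of these 2328, 1682 had a difference of at least 1 in growing leaves too, 462 lay between 0.3 and 1, and 39 were at or below −0.3. That left 145 genes (6.23%) within 0.3 of 0. Among these 145, 63 were higher by 1 or more in growing controls of day 13 than of day 2 and 18 were lower by 1 or more, which leaves the 64. The lower limit cuts through a continuous range. Just inside it lay Potri.010G040100, Potri.007G062302 and Potri.003G156600, each at 1.00, and just outside lay Potri.008G054600 at 0.998, Potri.017G112800 at 0.988 and Potri.005G060100 at 0.987.

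**Figure D1:**
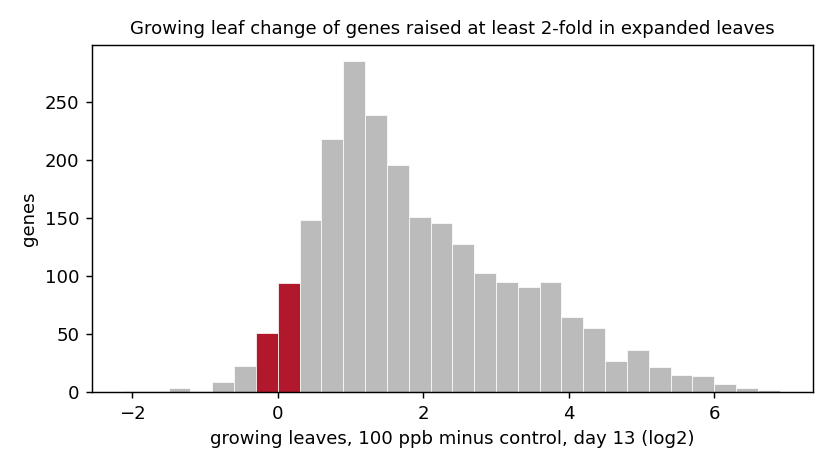
Day 13 difference between 100 ppb and control in growing leaves (horizontal axis, log2, bins of 0.3) for the 2328 genes that were higher by at least 1 in expanded leaves, with the number of genes on the vertical axis. Dark bars hold the 145 genes within 0.3 of 0, and most other genes lie to their right.

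On day 13 the 64 genes were higher at 100 ppb by a median of 1.244 in expanded leaves (from 1.00 to 3.46), and by a median of 0.06 in growing leaves. The median of their mean levels was 165 normalised reads in control air, 192 at 80 ppb and 483 at 100 ppb in expanded leaves. In growing leaves it was 154 in control air, 170 at 80 ppb and 166 at 100 ppb. For 56 of the 64 genes the highest of all 18 group means was that of expanded leaves at 100 ppb on day 13. The rule chose genes by that group, which favours this count. The other 8 peaked elsewhere: 4 in growing leaves at 100 ppb on day 8, 2 in expanded leaves at 100 ppb on day 2, 1 in growing leaves at 100 ppb on day 2 and 1 in growing controls of day 2. In these bulk samples, a change in the share of a cell type and a change in RNA per cell cannot be told apart.

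The largest day 13 difference was that of Potri.014G061400, a gene of low level elsewhere. In expanded leaves it had 40.8, 69.0, 128 and 166 normalised reads at 100 ppb (replicates 1 to 4), against 3.67, 6.65, 9.77 and 10.1 in control air. The groups did not overlap, and the difference was 3.46 on the log2 scale. In growing leaves of that day it lay between 5.28 and 13.0 at 100 ppb and between 5.85 and 22.8 in control air, so the groups overlapped. The second largest was Potri.002G098400, with 51.7, 254, 175 and 83.2 at 100 ppb and 4.58, 24.1, 13.8 and 10.1 in control air, a difference of 3.27. Replicate 2 was the highest library in both of its groups.

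The most abundant of the 64 was Potri.013G148400, named here after its values were seen. Its day 13 mean in expanded leaves was 28749 ± 12576 at 100 ppb and 10878 ± 2521 in control air (SD, n = 4 each). It lay between 17377 and 46304 in the 100 ppb libraries, all above the control libraries, whose highest was 13940. In growing leaves it lay between 8375 and 10601 at 100 ppb and between 8603 and 11016 in control air on that day.

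The day 13 libraries of expanded leaves were spread widely. Over the 64 genes, the median difference from the control mean was 0.75, 1.37, 1.48 and 1.68 in 100 ppb replicates 1 to 4, and −0.27, 0.25, −0.06 and 0.03 in control replicates 1 to 4. Replicate 1 was the lowest of the 4 libraries for 44 genes at 100 ppb and for 38 genes in control air, while control replicate 2 was the highest for 37. All 4 libraries at 100 ppb lay above all 4 controls for 41 of the 64 genes, beside 16.5% of all tested genes, and nothing is read from this count because the rule used that contrast. The remaining 23 genes met the rule with overlapping libraries.

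**Figure D2:**
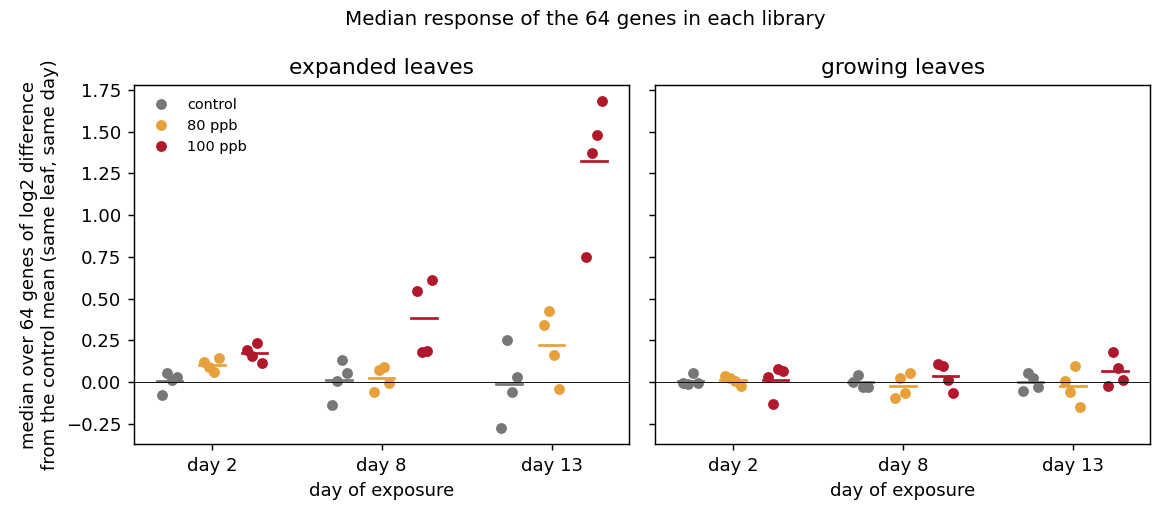
Median over the 64 genes of the log2 difference from the matched control mean (vertical axis; same position, same day), for each of the 72 libraries, by day and ozone level, with dashes at the mean of 4 libraries. On day 13 the 100 ppb libraries of expanded leaves lie between 0.75 and 1.68 and were used to choose the genes; on day 8 those libraries lie between 0.18 and 0.61.

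At 80 ppb on day 13, 63 of the 64 genes had a smaller difference from control than at 100 ppb, with a median of 0.22 in expanded leaves (from −0.45 to 2.57). The rule chose genes by their 100 ppb difference, which favours a smaller difference at 80 ppb in the counts given here. This comparison also shares its control libraries with the rule and is given without a test. For 47 genes the 80 ppb mean lay above control and below 100 ppb, and for 16 it was at or below control. The remaining gene, Potri.006G011600, averaged 143 ± 138 normalised reads in control air, 300 ± 123 at 80 ppb and 261 ± 164 at 100 ppb (SD, n = 4 each). A difference of at least 1 was seen in 4 genes. The largest was again that of Potri.014G061400, which had 30.4, 50.6, 116 and 27.4 normalised reads at 80 ppb. The median over the 64 genes was 0.34, 0.43, 0.16 and −0.04 in 80 ppb replicates 1 to 4. In growing leaves at 80 ppb the median was −0.03.

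Day 8 gives libraries that the rule used for its level limit alone. In expanded leaves the 64 genes were higher at 100 ppb than in control air by a median of 0.36, against −0.01 over all tested genes, and 57 of the 64 differences were above 0, against 48.5% of all. Single genes rarely passed the test. With limma and Benjamini-Hochberg adjustment over all genes, 10 of the 64 rose (15.6%) and 0 fell, beside 11.2% of all tested genes called higher, so the share of called genes was not far from the background. At an unadjusted p under 0.05, 22 were higher (34.4%) and 0 lower, beside 17.7% of all tested genes higher and 15.9% lower. All 4 libraries at 100 ppb lay above all 4 controls for 10 of the 64 genes, beside 10.2% of all tested genes.

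Among the 10 genes that rose on day 8, Potri.014G021800 had the largest change. It had 119, 133, 113 and 141 normalised reads at 100 ppb, against 77.1, 72.0, 39.0 and 73.3 in control air (0.99 ± 0.34, SE, adjusted p = 0.0317). The groups did not overlap, and control replicate 3 was the lowest library. Without that library the difference was 0.76 and the call was lost (adjusted p = 0.132; range over its alternatives 0.0137 to 0.132). Without control replicate 2 or 100 ppb replicate 1 or 4 the adjusted p was 0.0507, 0.0641 and 0.1. In growing leaves of day 8 this gene had 93.2, 90.0, 75.1 and 66.2 at 100 ppb and 70.3, 70.0, 61.6 and 82.0 in control air, and the groups overlapped.

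Potri.015G022000 had 261, 177, 262 and 299 normalised reads at 100 ppb in expanded leaves on day 8, against 95.3, 115, 165 and 150 in control air (0.93 ± 0.29, adjusted p = 0.0179). Every 100 ppb library lay above every control. The call did not hold when control replicate 1 or 2 or 100 ppb replicate 1 or 4 was left out (adjusted p = 0.0522 to 0.0826) and in a model of just the libraries compared (0.051), within a range over its alternatives of 0.00784 to 0.0826.

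The day 8 response was uneven between the libraries. Over the 64 genes the median difference from the control mean was 0.55, 0.18, 0.19 and 0.61 in 100 ppb replicates 1 to 4, so replicates 1 and 4 stood above the others. The count called higher was 3 without 100 ppb replicate 1 and 2 without replicate 4. It was 10 without replicate 2 and 12 without replicate 3. Leaving out control replicate 1, 2 or 4 gave 6, 3 and 6 genes, and in a model of just the libraries compared it was 4. In none of these settings was a gene called lower. The share of all tested genes called was not taken under them, so a smaller count may not be particular to the 64.

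On day 2 the response in expanded leaves was small and went both ways. The median difference between 100 ppb and control was 0.14, with 43 of the 64 genes above 0. By limma 1 gene rose and 2 fell (4.69% of the 64), beside 8.34% of all tested genes called in either direction. Potri.010G040100 rose, with 897, 1157, 935 and 935 normalised reads at 100 ppb against 652, 646, 610 and 555 in control air (0.67 ± 0.17, adjusted p = 0.0117). The groups did not overlap. Its call was lost without 100 ppb replicate 2, the highest library (0.0585), without control replicate 4 (0.0524) and in a model of just the libraries compared (0.0786), within a range of 0.00388 to 0.0786. On day 13 it averaged 1095 ± 495 in expanded leaves at 100 ppb and 509 ± 84.8 in control air (SD, n = 4 each).

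The genes that fell on day 2 were Potri.011G072100, described below, and Potri.003G217300, named because the count is small (−1.004 ± 0.26, adjusted p = 0.0121). The count was 1 without 100 ppb replicate 2 and 5, of which 3 were higher and 2 lower, without 100 ppb replicate 4. EdgeR and DESeq2 each called 5 in the same split, and in a model of just the libraries compared the count was 0. No majority direction held on day 2.

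At 100 ppb in expanded leaves the difference from control was largest on day 13 for all 64 genes, as the choice by that day favours. For 43 of them (67.2%) it was also larger on day 8 than on day 2, beside 49.6% of all tested genes. The median share of the day 13 difference was 11.6% on day 2 and 25.9% on day 8, and 11 genes had reached at least 0.5 of it by day 8. These shares divide by the difference that the rule chose to be large, which favours small shares. Genes below control numbered 21 on day 2 and 7 on day 8. Tested directly, the change of the response between days was called in 1 gene, Potri.011G072100 (1.56% of the 64), beside 0.364% of all tested genes. The median change was 0.21. The count was 2 by DESeq2, with TMM scaling, with a pseudocount of 8, without day 2 100 ppb replicate 1 or 3, without day 8 control replicate 1 or 3 and without day 8 100 ppb replicate 1.

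**Figure D3:**
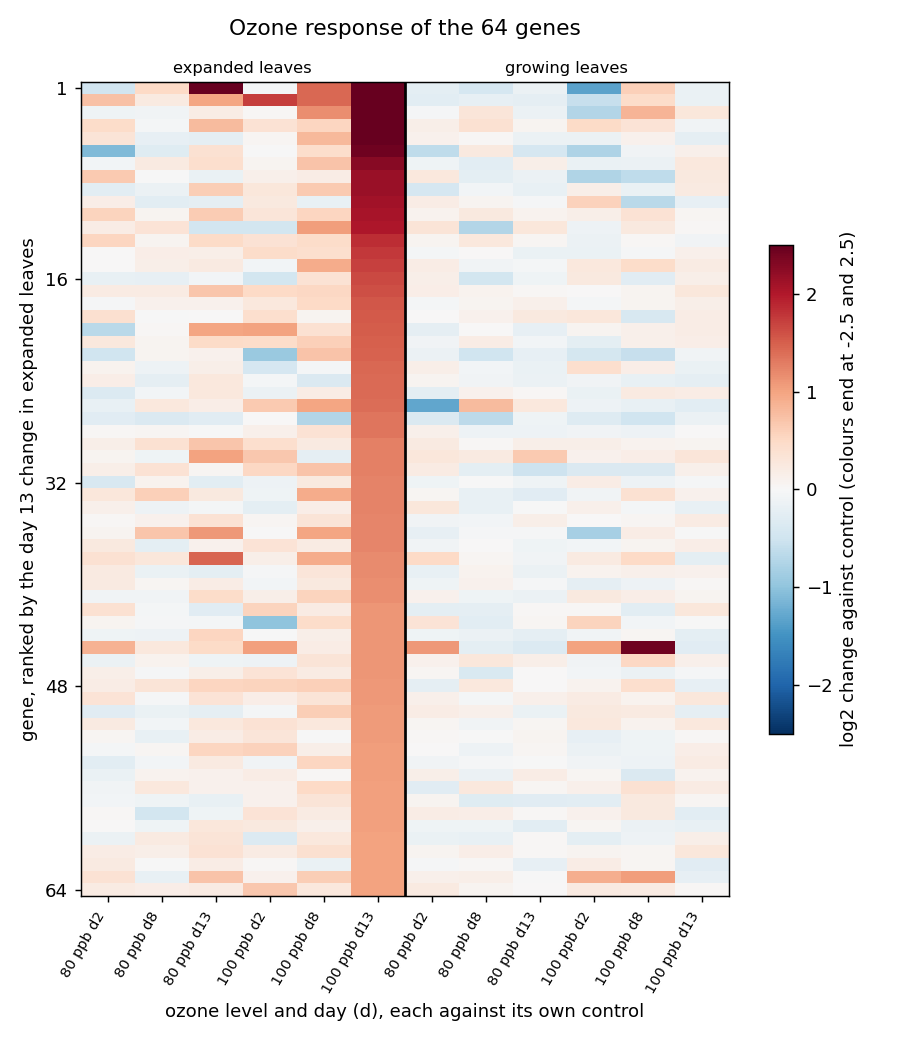
Log2 difference from the matched control for the 64 genes (rows, ranked by the day 13 difference at 100 ppb in expanded leaves), by ozone level and day (columns), in expanded leaves (left) and growing leaves (right). The day 13 column at 100 ppb in expanded leaves, which chose the genes, runs from 1.00 to 3.46, and the last column, growing leaves at 100 ppb on day 13, was held within 0.3 of 0 by the rule.

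Growing leaves of day 8, which the rule used for its level limit alone, show how the genes behaved in that position before day 13. The median difference between 100 ppb and control was 0.07 there. No gene of the 64 passed the test by limma, beside 0.0396% of all tested genes called in either direction, and 7 (10.9%) had an unadjusted p under 0.05, 4 higher and 3 lower, beside 5.92% of all tested genes. EdgeR called 0, and DESeq2 called 1. When growing 100 ppb replicate 3 was left out, limma called 1. For 55 of the 64 genes the upper limit of the 95% interval of the difference lay below 1 (the size the rule asked for in expanded leaves on day 13). For the other 9 genes it was 1 or more. This count was not made over all tested genes, so it is not read as a trait of the 64.

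Potri.007G062122, named here after its values were seen, was one of those 9. In growing leaves on day 8 it had 1634, 427, 77.7 and 1051 normalised reads at 100 ppb, against 111, 82.8, 101 and 71.3 in control air. Replicate 3 at 100 ppb lay inside the control range and replicates 1, 2 and 4 above it. The difference was 2.43 ± 0.73 (adjusted p = 0.3). The gene met the level limit of the rule only through this growing 100 ppb group of day 8 and groups of day 2. In expanded leaves on day 13, where it was chosen, its libraries had 135, 21.4, 133 and 49.9 at 100 ppb and 65.1, 26.6, 15.5 and 31.9 in control air, which overlap. Single high libraries also appeared in expanded leaves on day 2, with 1551 in 100 ppb replicate 4 and 617 in 80 ppb replicate 3.

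Whether the day 8 response differed between the leaf positions was tested as an interaction. The change was more positive in expanded than in growing leaves for 54 of the 64 genes, with a median difference of 0.37, against −0.01 over all tested genes. One gene passed the test (1.56%), Potri.011G072100, beside 0.0684% of all tested genes called in either direction. At an unadjusted p under 0.05, 3 were higher and 1 lower (6.25% in all), a smaller share than the 14.6% of all tested genes. The adjusted count was 0 with equal totals and 0 without expanded control replicate 1, 2 or 3, expanded 100 ppb replicate 1 or 4, any of the 4 growing controls, or growing 100 ppb replicate 1, 2 or 3.

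**Figure D4:**
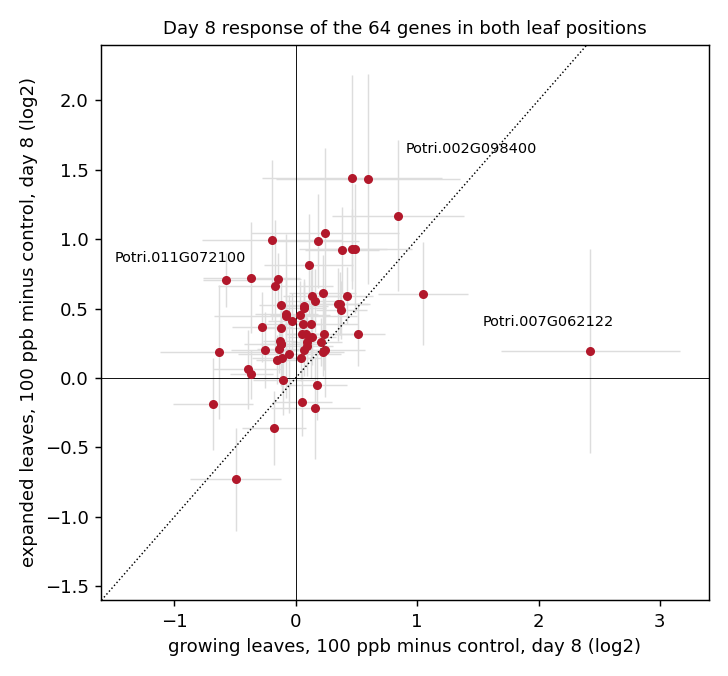
Day 8 difference between 100 ppb and control in expanded leaves (vertical axis) and in growing leaves (horizontal axis), log2, for the 64 genes, with bars of 1 standard error and a dotted line where both are equal. Most points lie above the line, with 54 of 64 more positive in expanded leaves, and Potri.007G062122 lies far to the right.

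Potri.011G072100 was the gene called in most contrasts, and its response to 100 ppb in expanded leaves was negative on day 2 and positive on day 8. These contrasts share libraries, so its calls are not separate support. The expanded control of day 8 enters the day 8 response, its change between days and its difference between positions. It also enters the comparisons of controls by position and by day. On day 2 it had 241, 223, 349 and 293 normalised reads at 100 ppb in expanded leaves, against 573, 411, 602 and 499 in control air (−0.92 ± 0.19, adjusted p = 0.00214). On day 8 it had 460, 414, 493 and 541 at 100 ppb, against 276, 247, 344 and 305 in control air (0.71 ± 0.19, adjusted p = 0.00751). The groups did not overlap on either day, and the direction was opposite. The change of the response between the days was 1.62 ± 0.27 (adjusted p = 0.000674), and it was called under all 26 alternatives (1.78e-05 to 0.00906). The day 2 call was lost in a model of just the libraries compared (0.11; range over its alternatives 0.000245 to 0.11).

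The control level of Potri.011G072100 moved as well. In expanded control leaves it averaged 521 ± 85.4 on day 2, 293 ± 41.3 on day 8 and 493 ± 216 on day 13 (SD, n = 4 each), and the day 8 control lay below that of day 2 (−0.83 ± 0.19, adjusted p = 0.000596). On day 13 it had 931, 1217, 1363 and 1651 at 100 ppb and 269, 732, 359 and 613 in control air. In growing leaves on day 8 it had 409, 440, 275 and 468 at 100 ppb and 539, 600, 582 and 604 in control air, with every 100 ppb library below every control (−0.57 ± 0.19, adjusted p = 0.415). Its growing controls averaged 413.5 ± 50.2 on day 2, 581 ± 29.5 on day 8 and 374 ± 31.3 on day 13 (SD, n = 4 each). On day 8 the expanded control lay below the growing control (−0.996 ± 0.19, limma, adjusted p = 1.76e-05). The difference of the response between expanded and growing leaves was 1.28 ± 0.27 (adjusted p = 0.0411). It lost its call under 13 of 26 alternatives, equal totals and the 12 left-out libraries named above, with the adjusted p between 0.00991 and 0.156 over all of them.

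**Figure D5:**
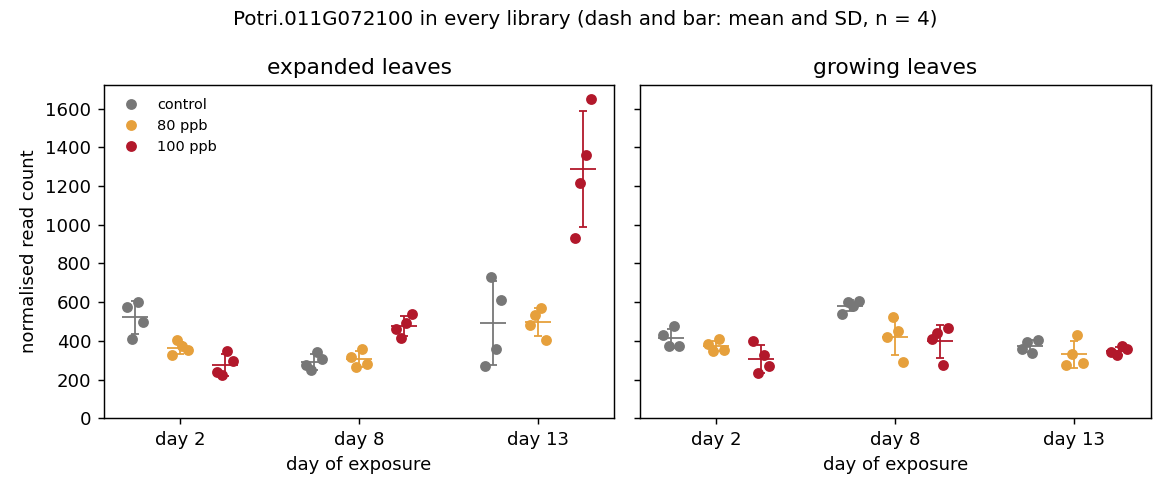
Normalised read count of Potri.011G072100 (vertical axis) in each library of expanded and growing leaves by day and ozone level, with the mean and SD of 4 libraries. In expanded leaves the 100 ppb libraries lie below control on day 2 (223 to 349 against 411 to 602) and above it on day 8 (414 to 541 against 247 to 344).

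At 80 ppb the genes stood near control before day 13. In expanded leaves the median difference from control was 0.01 on day 8, with 32 of the 64 above 0, and 0.07 on day 2. Limma called 0 of the 64 at 80 ppb on day 8, beside 0.018% of all tested genes, and 0 on day 2, beside 0.0108%. An unadjusted p under 0.05 was seen in 1 gene (1.56%) on day 8, beside 3.31% of all tested genes, and in 4 (6.25%) on day 2, beside 4.41%. EdgeR and DESeq2 called 0 on both days. Set directly against 80 ppb on day 8, 100 ppb was higher by a median of 0.33, with 57 of the 64 above 0. In that comparison 2 genes were higher (3.12%) and 0 lower, beside 5.11% of all tested genes called higher.

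These were Potri.011G072100 and Potri.007G029600. Potri.011G072100 had 460, 414, 493 and 541 normalised reads at 100 ppb and 318, 267, 360 and 278 at 80 ppb (0.64 ± 0.19, adjusted p = 0.0324). Potri.007G029600 had 597, 289, 364 and 501 at 100 ppb and 243, 255, 313 and 302 at 80 ppb (0.60 ± 0.18, adjusted p = 0.03). The groups overlapped for Potri.007G029600, since 100 ppb replicate 2 lay below 80 ppb replicates 3 and 4, and did not overlap for Potri.011G072100. Both calls were lost in a model of just the libraries compared (0.168 for Potri.011G072100 and 0.193 for Potri.007G029600). The count moved with every library: it was 0, 0, 4 and 1 without 80 ppb replicates 1 to 4 and 0, 13, 7 and 0 without 100 ppb replicates 1 to 4. EdgeR called 5 and DESeq2 called 6, and in a model of just the libraries compared the count was 0.

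In control air the genes were not placed on one side by leaf position. On day 8 the median difference between expanded and growing controls was 0.03, from −2.42 to 4.18. By limma 14 genes were higher (21.9%) and 13 lower (20.3%) in expanded leaves, beside 27.2% and 27.1% of all tested genes. Scaling to equal totals, which moves the median over all genes to 0.32, gave 23 higher and 6 lower. In a model of just the libraries compared, 15 were higher and 17 lower, and without growing control replicate 4 it was 11 and 12, so no majority direction held.

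Potri.015G022000, one of the genes that rose at 100 ppb on day 8, was higher in expanded controls of that day, with 95.3, 115, 165 and 150 normalised reads against 40.5, 40.7, 37.2 and 45.7 in growing controls (1.63 ± 0.29, adjusted p = 3.46e-06). Potri.003G056200 had 339, 316, 254 and 267 in expanded and 181, 99.3, 124 and 171 in growing controls (1.06 ± 0.37, adjusted p = 0.0127). Without growing control replicate 2 its call was lost (0.0533; range over its alternatives 0.00144 to 0.0533). In both genes the groups did not overlap.

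Potri.006G011600 was lower in expanded controls, with 122, 109, 42.9 and 120 normalised reads against 742, 675, 321 and 367 in growing controls (−2.42 ± 0.46, adjusted p = 1.48e-05). Replicate 3 was the lowest library in both groups. Potri.003G156600 had 149, 173, 131 and 136 in expanded and 305, 341, 270 and 317 in growing controls (−1.06 ± 0.24, adjusted p = 0.000211). The groups of both genes lay fully apart.

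Within expanded control leaves the level of the genes also changed with time in both directions. From day 8 against day 2 the median difference was −0.14, and by limma 8 genes were higher (12.5%) and 6 lower (9.38%), beside 17.9% and 19.1% of all tested genes. Under equal totals, where the median over all genes is 0.27, 15 were higher and 2 lower. Without day 2 control replicate 1, 4 were higher and 5 lower.

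Potri.004G176100 had 354, 409, 576 and 439 normalised reads on day 8 and 221, 305, 293 and 245 on day 2 (0.73 ± 0.20, adjusted p = 0.00328). Potri.005G192600 had 614, 462, 606 and 621 on day 8 and 338, 370, 408 and 321 on day 2 (0.68 ± 0.14, adjusted p = 7.98e-05). Neither gene's days overlapped. Potri.006G011600, lower in expanded than in growing controls, was lower on day 8 too, with 122, 109, 42.9 and 120 against 461, 215, 253 and 363 on day 2 (−1.75 ± 0.46, adjusted p = 0.00231). Potri.008G099300 had 4071, 5877, 3552 and 5049 on day 8 and 7414, 9257, 8566 and 7632 on day 2 (−0.85 ± 0.25, adjusted p = 0.00582). Its call was lost with equal totals (0.0545; range over its alternatives 0.00326 to 0.0545).

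A set of 664 genes raised in both leaf positions shows where the 64 stand apart from a more common pattern. These had a day 13 difference of at least 1 in expanded and in growing leaves and met the same limit on the growing controls. On day 13, where both sets were chosen, the median in expanded leaves was 1.244 for the 64 and 2.22 for the 664. On day 8 it was 0.36 for the 64 and 1.28 for the 664 in expanded leaves, and 15.6% and 67.2% of them were called higher. On day 2 the medians were 0.14 and 0.95. In growing leaves on day 8 they were 0.07 for the 64 and 0.15 for the 664, and 0% of either set was called higher or lower. The difference of the day 8 response between leaf positions had a median of 0.37 in the 64 genes and 1.10 in the 664, so a larger response in expanded than in growing leaves on day 8 was also seen in genes raised in both positions by day 13. In control air on day 8 the expanded minus growing difference had a median of 0.03 in the 64 and 0.55 in the 664. The sets were not tested against each other.

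The identifiers of the 64 genes fall under 18 prefixes, with at most 7 genes under any of them. Across the 72 libraries, after group means were taken off, the median correlation between genes was 0.154 over 2016 pairs. Of these pairs, 28.3% were over 0.3. All genes of a library share its depth and scaling. Pairs drawn from all tested genes were not examined, so these values are not read as a trait of the 64. Identifier numbers within 1000 of each other under the same prefix were found in 5 pairs of 7 genes. Among them, Potri.006G022300 and Potri.006G023101 had a correlation of 0.812, Potri.006G023101 and Potri.006G023151 one of 0.775, and Potri.014G021700 and Potri.014G021800 one of −0.32, each over 72 libraries. These genes were named after their values were seen, and whether they are copies that share reads was not assessed.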

How the data were processed

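Per the labels' protocols, total RNA was extracted with TRIzol and poly(A)-selected, stranded libraries were sequenced as paired ends. The authors deposited a signal for each gene in each library: read counts they had normalised. DESeq2 1.24.0, Subread 1.6.1, featureCounts and TopHat2 2.12 are named per the submitters' processing notes. Their roles, the strand setting and the genome build are not given in the sources used here. In every column 100% of values were whole multiples of 1 step within 0.01 reads, so whole reads were recovered. They served for edgeR and DESeq2, which are alternatives here, because the deposited signal is no raw count.

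The 64 genes, the contrasts and the rule for named genes were chosen with earlier results of these data known. Genes were tested where 4 or more libraries reached a value of 10. Log2(value + 1) was fitted with limma 3.58.1 in R 4.3.3 (trended eBayes, a mean per group over all 72 libraries, 54 residual degrees of freedom, two-sided), with Benjamini-Hochberg adjustment over all genes tested and calls at 0.05. Changes are on this log2 scale, which understates those of low genes, and are given ± SE. Groups come from the labels alone. Named are the 2 largest day 13 differences, up to 2 called genes per contrast and direction (largest change, mean of at least 100 in the higher group, no replicate crossing the mean of the other group) and the 3 genes on either side of the limit. Lists by product description could not be formed and were left out. The alternatives tried were a pseudocount of 0.25 or 8, a filter at 50 or none, TMM scaling, equal totals, a model of just the libraries compared, a replicate block, each library left out, edgeR 4.0.16 (quasi-likelihood) and DESeq2 1.42.0. The limma fit was tested on simulated counts.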

Additional observations from a re-analysis of the deposited data

Results flagged for a closer look

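For Potri.011G072100 the response to 100 ppb was more positive in expanded than in growing leaves on day 8 by 1.28 on the log2 scale (adjusted p = 0.0411, limma interaction). This call was lost under 13 of 26 alternatives, equal totals and 12 left-out libraries, with adjusted p from 0.00991 to 0.156 over all of them. The change of its response between day 8 and day 2 in expanded leaves was 1.62 (adjusted p = 0.000674), and that call held under all 26. Both results use the expanded libraries of day 8.

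In 5 groups of 4 libraries, 1 library stood apart from the other 3, its gap to the nearest of them a larger part of the group's range than Dixon's 95% limit allows. Over the 64 genes, growing control replicate 3 of day 2 had a median of 0.0525 from its group mean and was the highest. Potri.010G040100 had 1157 normalised reads in expanded 100 ppb replicate 2 of day 2, the highest of its group. In expanded controls of day 8, Potri.005G192600 had 462 in replicate 2, Potri.006G011600 had 42.9 in replicate 3 and Potri.014G021800 had 39.0 in replicate 3, each the lowest. In all, 30 groups of named genes and 18 groups of library medians were examined, and chance alone would pick out about 1 group in 20.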

How the results depend on the processing

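Of the 195 counts of called genes under alternatives, 145 stayed within 1.5 times their count with the same majority direction. These include the counts at 80 ppb, which were 0 under every alternative, and most of those of growing leaves on day 8, which stayed at 0. In expanded leaves at 100 ppb on day 8 the count of 10 was 4 in a model of just the libraries compared and ranged from 2 to 12 with 1 library left out. On day 2 the count of 3 was 0 in that model and 5, mostly higher where the original was mostly lower, by edgeR, by DESeq2 and with the replicate block, and ranged from 1 to 5 with 1 library left out. In growing leaves on day 8 the count of 0 was 1 by DESeq2 and ranged from 0 to 1. The difference between positions (1) was 0 with equal totals and ranged from 0 to 1. The change between days (1) was 2 by DESeq2, with TMM scaling and with a pseudocount of 8, and ranged from 1 to 2. For 100 against 80 ppb the count of 2 was 0 in the model of just the libraries compared, 4 with the block, 5 by edgeR and 6 by DESeq2, and ranged from 0 to 13. For expanded against growing controls the count of 27 was 32, with the majority lower, in that model; it was 23, also with the majority lower, without growing control replicate 4, within 22 to 28. For expanded controls of day 8 against day 2 the count of 14 ranged from 9 to 14 and was mostly lower at 9. Unless said otherwise the cause was not tested, and leaving out a library leaves 3 in its group. The share of all tested genes called was taken with the main fit alone, so counts under alternatives have no background beside them.

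Deviations of same-numbered libraries had correlations from −0.429 to 0.355. All 4 were over 0.1 only between expanded and growing leaves at 100 ppb on day 8 (0.125 to 0.25). Between expanded 100 ppb and control of day 8, 3 were over 0.1 (−0.193 to 0.195 in all). Differently numbered libraries were not compared, so pairing was not settled and the replicate block is no paired analysis. Under the block 7 genes rose at 100 ppb on day 8 and the counts at 80 ppb stayed at 0; a block across leaf positions, added after the data were seen, left the position count at 27. The block across leaf positions was fitted for that control comparison only, and not for the difference of the response between positions. No block could be fitted for expanded controls of day 8 against day 2, since numbers were blocked within a day.

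Named genes kept their call in 261 of 300 alternatives and lost it in 39, with no direction turned. Applied after TMM scaling the rule itself kept 62 of the 64 genes, and after equal totals 35; with 1 library left out it kept 42 (without expanded 100 ppb replicate 4 of day 13) to 64, among 49 to 93 genes that met it. These repeats were added after the data were seen. The 4 libraries per group, with standard errors of 0.14 to 0.76 per gene, limit which single genes can pass.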
